A study of Canis lupus familiaris with 16 samples.

Results

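The small leucine-rich proteoglycans (SLRPs) examined here were 10 genes taken by name, with earlier results of these data known and with no threshold on a measured value: *DCN* (decorin), *BGN* (biglycan), *ASPN* (asporin), *ECM2*, *LUM* (lumican), *FMOD* (fibromodulin), *PRELP*, *OMD* (osteomodulin), *OGN* (osteoglycin) and *PODN* (podocan). All 10 were found among the 41818 genes counted, and all 10 passed the filter on low counts, as did 15408 genes in all. SLRPs are secreted proteins of the extracellular matrix with a curved core of leucine-rich repeats. Most carry chondroitin, dermatan or keratan sulfate chains. They bind collagens, where they help to set the diameter and spacing of fibrils, and several also bind growth factors such as TGF-beta or cell surface receptors. Fibroblasts of skin, fascia and tendon are a main source, and the family is sorted into classes by sequence and gene structure. *DCN*, *BGN*, *ASPN* and *ECM2* are placed in class I, *LUM*, *FMOD*, *PRELP* and *OMD* in class II, *OGN* in class III and *PODN* in class V.

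Levels came from RNA sequencing of 16 canine soft tissue sarcomas that had been fixed in formalin and embedded in paraffin, a treatment that fragments RNA. By the molecular identity given for each tumor, the series holds 4 fibrosarcomas (FS), 6 tumors of the peripheral nerve sheath (PNST) and 6 of the perivascular wall (PWT). No normal tissue was analysed here. The dogs were 9 to 13 years old in FS, 8 to 13 in PNST and 2 to 14 in PWT, and grades ran from 1 to 3 in FS, 1 to 2 in PNST and 1 to 3 in PWT. The molecular identity of S1-10, a PWT by histology that was placed with PNST, and of S2-08, an FS by histology that was placed with PWT, had been set from the expression of genes in these same libraries, so the groups are not independent of the data tested. S1-04 and S1-05, both PNST, have the same age, breed and other labels and may come from 1 dog. They were counted as 2 samples.

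The reads counted on genes numbered 507728 (S1-12, an FS) to 4311876 (S1-03, a PNST) per tumor, with medians of 2023563.5 in FS, 2984704 in PNST and 1611104.5 in PWT. Tumors whose names begin with S1 had 3 runs each, which were summed, and those with S2 had 1. Between runs of the same tumor, the members' counts differed by a median chi-square of 1.24 per degree of freedom (90 gene and tumor pairs, highest 6.82). S1 names made up 3 of 4 FS, 5 of 6 PNST and 1 of 6 PWT. The libraries were made from whole sections, in which fewer cells of a type and less RNA per cell cannot be told apart. The defining markers did not set the labelled types apart. Summed over 6 genes, Schwann cell markers reached 22.6 to 90.7 CPM (counts per 1000000 counts on genes) in PNST, 16.3 to 82.0 in FS and 12.1 to 41.1 in PWT. The 8 pericyte and smooth muscle markers summed to 381 to 718 CPM in PWT, 387 to 874 in PNST and 578 to 1792 in FS.

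A gene is given below as CPM, its count over the TMM-scaled total of the tumor. Levels are compared between tumors and not between genes, since no transcript lengths were used. A gene was called different when edgeR's quasi-likelihood test gave a Benjamini-Hochberg adjusted p under 0.05 over all 15408 genes and an absolute log2 fold change above 1.

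Most calls in the family were in FS, as were most calls among all genes tested (1457 in FS, 327 in PWT and 0 in PNST). Against both other types pooled, *BGN*, *FMOD* and *LUM* were higher and *ECM2* was lower in FS, while *OMD* was higher in PWT. That made 4 of 10 members called in FS, where 9.46% of all genes tested were called. In PWT 1 of 10 members was called, against 2.12% of all genes. In PNST 0 of 10 members were called, as were 0% of all genes, although 2415 genes and 3 members (*OMD*, *OGN* and *PODN*) had an unadjusted p under 0.05 with edgeR, and DESeq2 called 0 members. The median log2 fold change of the 10 members in FS was -0.08, beside 0.0039 for all genes tested, since members moved in both directions.

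**Figure D1:**
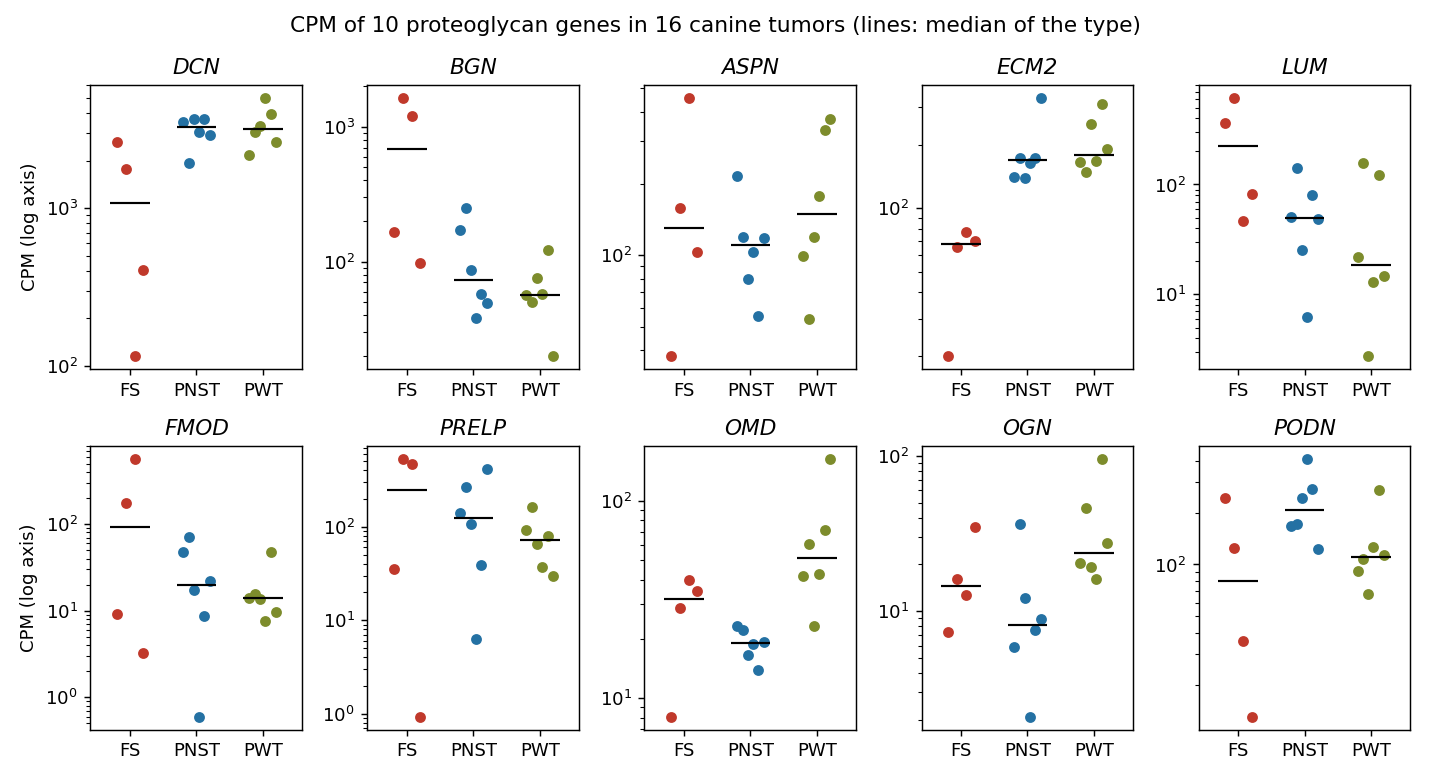
CPM of the 10 genes on log axes in FS, PNST and PWT, with 1 point for each tumor and a line at the median of the type. *ECM2* lay below 78 CPM in all 4 FS and above 138 CPM in the other 12 tumors, whereas the FS points of *BGN* and *FMOD* split into high and low tumors.

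Within FS, the members did not rise together in the same tumors. *BGN* and *FMOD* were high in S1-11 and S1-12, *LUM* was high in S1-02 and S1-11, and *DCN* was low in S1-12 and S2-06. For *DCN*, *BGN*, *ASPN*, *ECM2*, *FMOD*, *PRELP* and *PODN*, the ratio of the highest to the lowest level was larger in FS than in either other type. The share of all genes with the widest spread in FS was not counted, so this is not shown to be particular to the family. The highest FS level of *FMOD* was 175 times the lowest, and that of *PRELP* was 576 times the lowest, where the same ratios were 118 and 65.6 in PNST and 6.31 and 5.52 in PWT. Other members spread less in FS than elsewhere, as *LUM*, at 13.1 times in FS, 22.5 in PNST and 57.0 in PWT, and *OGN*, at 4.73, 17.5 and 5.94. Both FS minima came from S2-06 and rest on few reads, with 7 counts of *FMOD* (3.25 CPM, exact Poisson interval 1.31 to 6.70) and 2 counts of *PRELP* (0.929 CPM, interval 0.113 to 3.36). These 95% intervals cover counting error only.

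**Figure D2:**
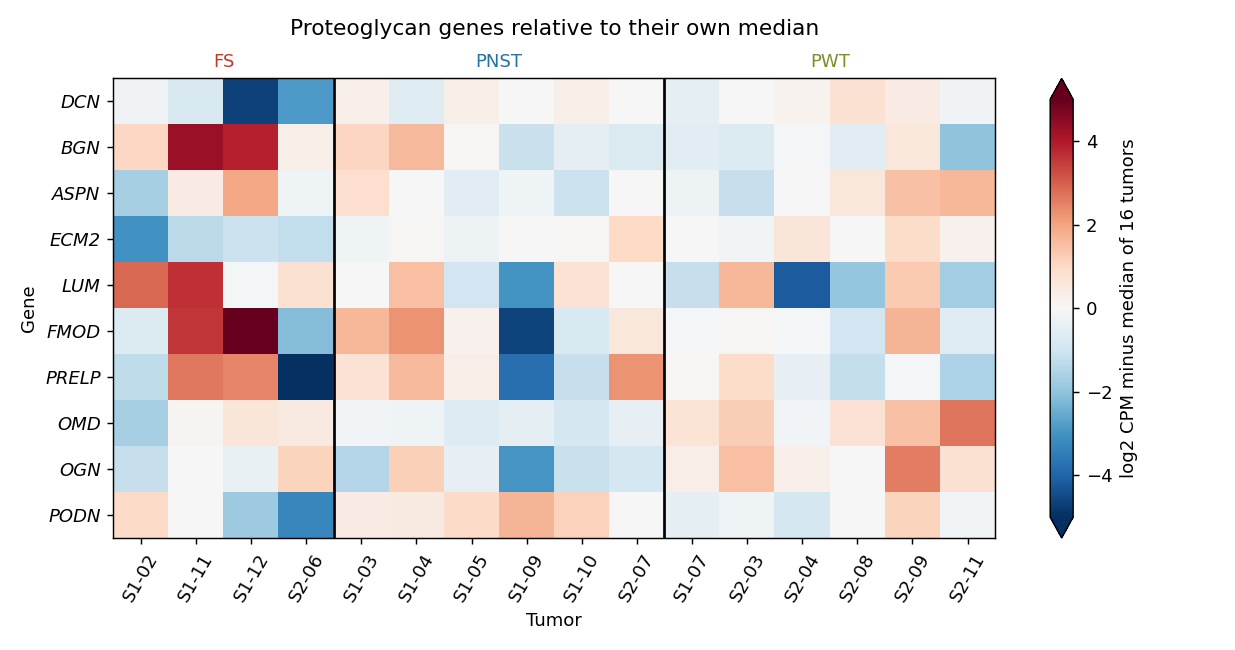
Log2 CPM of each gene minus its median over the 16 tumors, with tumors in columns by type and genes in rows. S1-11 and S1-12 are red for *BGN*, *FMOD* and *PRELP*, all 4 FS are blue for *ECM2*, and S1-09, a PNST, is blue for *LUM*, *FMOD*, *PRELP* and *OGN*.

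*BGN* encodes a proteoglycan with chondroitin or dermatan sulfate chains that is released in injured tissue and can signal through TLR2 and TLR4. It reached 165 CPM in S1-02, 1639 in S1-11, 1206 in S1-12 and 98.5 in S2-06. In PNST it ran from 37.9 to 249 CPM with a median of 72.6, and in PWT from 20.0 to 122 with a median of 56.8. The 2 high FS lay above every other tumor, while the other 2 lay within the range of PNST. Means were 777 ± 766 CPM in FS (SD, n = 4) and 86.3 ± 65.6 in the other tumors (SD, n = 12). In FS against both other types it rose by a log2 fold change of 3.17 (SE 0.57, edgeR adjusted p = 0.00178). With the name prefix as a term it was 2.69 (adjusted p = 0.00964) and 3.20 within S1 tumors (adjusted p = 0.0260), and the adjusted p ranged from 1.71e-05 to 0.631 over all alternatives. The highest of these came from leaving out both S1-11 and S1-12, which took the log2 fold change to 0.61, and without S1-11 alone it was 2.51 (adjusted p = 0.0173).

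*FMOD*, which binds type I collagen and directs lysyl oxidase to it, had the widest spread of the 10 members, from 2 counts in S1-09 (0.597 CPM, exact Poisson interval 0.0723 to 2.16) to 571 CPM in S1-12. The other FS held 9.13 CPM in S1-02, 177 in S1-11 and 3.25 in S2-06. PNST ran from 0.597 to 70.4 CPM with a median of 19.7, and PWT from 7.55 to 47.6 with a median of 13.9. As with *BGN*, S1-11 and S1-12 lay above all other tumors, but S1-02 and S2-06 lay below the medians of PNST and PWT. In FS against both other types the log2 fold change was 3.02 (SE 0.83, edgeR adjusted p = 0.0249), with an adjusted p from 0.00989 to 0.353 over the alternatives. It was 2.56 with the prefix included (adjusted p = 0.122), 3.24 within S1 tumors (adjusted p = 0.109), 3.06 without S1-11 (adjusted p = 0.0542) and 1.45 without S1-12 (adjusted p = 0.322). Without both tumors *FMOD* was at -1.86 in FS (adjusted p = 0.353), the opposite sign.

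*LUM* encodes the keratan sulfate proteoglycan lumican, known for keeping collagen fibrils thin and evenly spaced in the cornea. It stood at 362 CPM in S1-02, 614 in S1-11, 46.9 in S1-12 and 82.7 in S2-06. PNST ran from 6.26 to 141 CPM with a median of 49.1. PWT ran from 2.75 CPM (2 counts in S2-04) to 157 with a median of 18.4. S1-02 and S1-11 lay above every other tumor and the other FS did not. FS against both other types gave a log2 fold change of 2.28 (SE 0.72, edgeR adjusted p = 0.0485), close to the threshold. The call was lost in 18 of 27 alternatives, with an adjusted p from 0.0264 to 0.274, among them the prefix as a term (2.20, adjusted p = 0.104), S1 tumors alone (2.69, adjusted p = 0.0845) and the fit without S1-11 (1.53, adjusted p = 0.274).
Each of S1-02, S1-03, S1-05, S1-07, S1-09, S1-10, S2-04, S2-07, S2-08 and S2-11, when left out, also ended the call of *LUM*, at 2.14 to 2.34 on the log2 scale with adjusted p values of 0.0527 to 0.103.

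*ECM2*, a matrix protein with leucine-rich repeats like those of decorin, was the member lower in FS. Its levels were 20.0 CPM in S1-02, 65.2 in S1-11, 77.6 in S1-12 and 69.7 in S2-06. PNST ran from 139 to 333 CPM with a median of 168, and PWT from 149 to 312 with a median of 179. All 4 FS lay below all 12 other tumors, an order that 1.68% of the genes tested showed, and it was the only member to do so (1 of 10). The reverse order, with all FS above the others, was found in 0 of 10 members and 1.53% of genes. The log2 fold change in FS was -1.76 (SE 0.35, edgeR adjusted p = 0.00356), -1.62 with the prefix included (adjusted p = 0.00379), -1.55 within S1 tumors (adjusted p = 0.0391) and -2.13 without S1-11 and S1-12 (adjusted p = 0.0192), and the adjusted p ran from 7.37e-06 to 0.0783 over the alternatives. The highest came from grouping tumors by histology, under which S2-08, at 167 CPM, counts as an FS.

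*DCN*, the decorin gene, whose product coats type I collagen fibrils and binds TGF-beta, did not pass in any of the comparisons. It was at 2633 CPM in S1-02, 1761 in S1-11, 116 in S1-12 and 404 in S2-06. PNST lay between 1926 and 3664 CPM and PWT between 2173 and 4995, and the 12 tumors outside FS averaged 3229 ± 821 CPM (SD, n = 12). S1-12 and S2-06 fell below this range by a wide margin, S1-11 was just below it, and S1-02 was within it. In S1-12 the level rests on 64 counts. The log2 fold change of FS was -1.38 (95% interval -2.51 to -0.26, edgeR adjusted p = 0.107). It passed with DESeq2 (-1.35, adjusted p = 0.0430) and without S1-02 (-2.07, adjusted p = 0.0328), in a range from 0.0328 to 0.629 over the alternatives.

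*OMD*, a keratan sulfate proteoglycan of mineralizing tissue, was the member higher in PWT. It reached 41.7 CPM in S1-07, 60.5 in S2-03, 23.4 in S2-04, 42.6 in S2-08, 71.0 in S2-09 and 164 in S2-11. PNST lay between 14.0 and 23.4 CPM and FS between 8.08 and 39.7. In 5 of 6 PWT the level was above all 10 other tumors, and S2-04 was level with the highest PNST. The mean was 67.2 ± 50.2 CPM in PWT (SD, n = 6) and 22.6 ± 9.57 in the others (SD, n = 10). The log2 fold change was 1.60 (SE 0.36, edgeR adjusted p = 0.0315), and the adjusted p ranged from 0.00283 to 0.504. With the prefix as a term it was 1.25 (adjusted p = 0.380), and within S2 tumors it was 1.42 (adjusted p = 0.504). Because 5 of 6 PWT were S2 tumors and 8 of the other 10 were S1 tumors, the name prefix and PWT overlap widely. The call was also lost without S2-03 (1.62, adjusted p = 0.0513), S2-04 (1.77, adjusted p = 0.0558), S2-09 (1.58, adjusted p = 0.0583) or S2-11 (1.11, adjusted p = 0.111).

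*OGN*, a keratan sulfate proteoglycan once named osteoinductive factor, was also at its highest in PWT, with S2-09 at 96.1 CPM and S2-03 at 46.3. The other 4 PWT held 16.2 to 27.3 CPM, within the range of FS (7.38 to 34.8) and of PNST (2.09 to 36.6). Its log2 fold change in PWT was 1.38 (95% interval 0.29 to 2.46, edgeR adjusted p = 0.128), which did not pass. The lowest level, in S1-09, rests on 7 counts, as does the 12.6 CPM of S1-12.

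*PRELP*, whose product has a proline- and arginine-rich end that binds heparan sulfate, showed 35.1 CPM in S1-02, 535 in S1-11, 464 in S1-12 and 0.929 in S2-06. PNST ran from 6.26 to 411 CPM with a median of 124, and PWT from 29.6 to 163 with a median of 72.3. Its 2 high FS were the same tumors as for *BGN* and *FMOD*, but S2-07, a PNST, came close to them. The log2 fold change in FS was 1.11 (95% interval -0.71 to 2.92, edgeR adjusted p = 0.461).

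*ASPN* and *PODN* passed in none of the comparisons. *ASPN*, whose product carries a run of aspartate residues and competes with decorin for collagen, was at 37.9 CPM in S1-02, 157 in S1-11, 457 in S1-12 and 104 in S2-06, and it ran from 56.0 to 216 CPM in PNST and from 54.2 to 372 in PWT. Its log2 fold change in FS was 0.29 (95% interval -0.83 to 1.41, edgeR adjusted p = 0.791). *PODN*, known from the sclerotic glomerulus and the vessel wall, was at 244 CPM in S1-02, 125 in S1-11, 36.1 in S1-12 and 13.0 in S2-06, with 124 to 413 CPM in PNST and 67.5 to 270 in PWT. S1-12 and S2-06, the tumors lowest in *DCN*, were also the lowest in *PODN*. The log2 fold change of *PODN* was 0.95 in PNST (95% interval 0.01 to 1.89, edgeR adjusted p = 0.313) and -0.77 in FS (95% interval -1.95 to 0.41, adjusted p = 0.424).

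**Figure D3:**
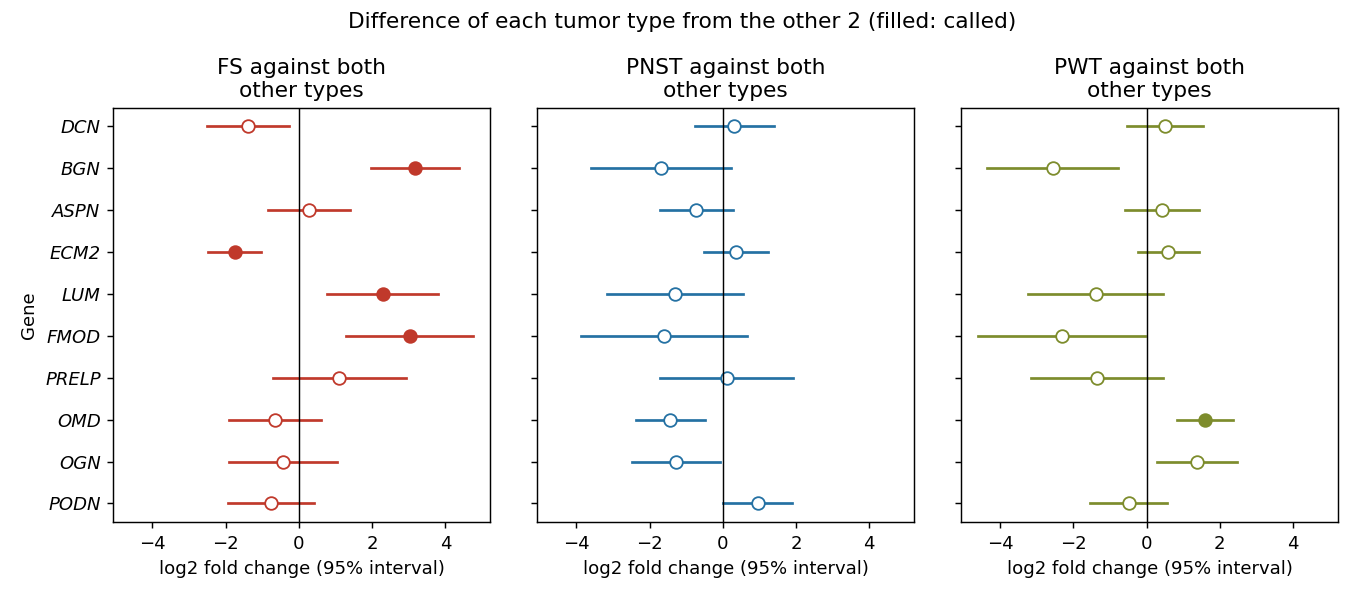
Log2 fold change of each type against both other types for the 10 genes, with 95% intervals and filled circles for genes called by edgeR. In FS *BGN*, *LUM* and *FMOD* lie to the right and *ECM2* to the left, at 3.17, 2.28, 3.02 and -1.76, and in PWT *OMD* lies to the right at 1.60.

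The pairs of types were also compared, in 1 fit of all 3 groups, so these comparisons share tumors with each other and with those above. Between FS and PNST, 2 of 10 members were called, against 7.13% of all genes. *BGN* was higher in FS by a log2 fold change of 2.84 (SE 0.69, edgeR adjusted p = 0.0191) and *ECM2* was lower, at -1.69 (SE 0.37, adjusted p = 0.0110). Without S1-11 *BGN* was at 2.17 (adjusted p = 0.0751, within a range of 0.000944 to 0.842 over the alternatives) and was no longer called.
Between FS and PWT, 3 of 10 members were called, against 11.2% of all genes. *BGN* was at 3.62 (SE 0.72, edgeR adjusted p = 0.00433), *ECM2* at -1.83 (SE 0.37, adjusted p = 0.00520) and *FMOD* at 3.38 (SE 1.07, adjusted p = 0.0451). The call of *FMOD* was lost in 13 of 26 alternatives, over which the adjusted p ran from 0.0184 to 0.451, and was 0.258 without S1-12 at a log2 fold change of 1.81. Leaving out S1-03, S1-05, S1-07, S1-11, S2-03, S2-04, S2-07, S2-08 or S2-11 also ended it, at 3.22 to 3.42 (adjusted p from 0.0518 to 0.0880).
Without S2-03 *LUM* passed between FS and PWT (3.01, adjusted p = 0.0405, range 0.0405 to 0.382), *OMD* without S2-04 (-1.47, adjusted p = 0.0495, range 0.0495 to 0.305) and *DCN* without S1-02 (-2.12, adjusted p = 0.0346, range 0.0346 to 0.617).
*BGN* between FS and PWT was at 2.45 with the prefix as a term (adjusted p = 0.128, range 7.07e-06 to 0.330) and was not called there.
Between PNST and PWT, 0 of 10 members were called with edgeR, against 0.169% of all genes. *OMD* and *OGN* had an unadjusted p under 0.05, and DESeq2 called *OMD*. The nearest was *OMD*, lower in PNST at -1.82 (95% interval -2.68 to -0.95, edgeR adjusted p = 0.0655). It passed without S1-02, S1-11, S1-12 or S2-08, at -1.92 to -1.81 with adjusted p values of 0.0405 to 0.0499, and its adjusted p ranged from 0.00254 to 0.585. For *DCN*, *ECM2* and *LUM* the log2 differences between PNST and PWT were -0.10, -0.14 and 0.07, with 95% intervals of -1.15 to 0.94, -0.78 to 0.51 and -1.64 to 1.78.

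The balance between decorin and biglycan, class I members that share collagen and TGF-beta as partners, was compared as the log2 ratio of their counts in each tumor, with a prior count of 0.5, which does not depend on library size. The ratio was 3.99 in S1-02, 0.10 in S1-11, -3.37 in S1-12 and 2.03 in S2-06. In PNST it ran from 2.95 to 6.31 and in PWT from 5.00 to 7.01. All tumors outside FS other than S1-04, at 2.95, and S1-03, at 4.34, stood above 5, and S1-12 was the tumor with more reads of *BGN* than of *DCN*. The mean was 0.69 ± 3.14 in FS (SD, n = 4) and 5.49 ± 1.07 in the others (SD, n = 12), a difference of -4.80 (two-sided exact permutation test over 1820 arrangements, p = 0.00110, Benjamini-Hochberg adjusted over 6 ratio tests 0.00659). PWT lay 2.49 above the others (exact p = 0.0633, adjusted 0.190) and PNST 1.36 above (exact p = 0.378, adjusted 0.617), over 8008 arrangements each. With labels permuted within name prefixes only, the adjusted p for FS was 0.0204. Without S1-11 and S1-12, the difference was -2.48 (exact permutation test, adjusted p = 0.0659, in a range of 0.00440 to 0.0659 over the alternatives).

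The ratio of *LUM* to *FMOD*, class II members that share a binding site on collagen, took opposite extremes within FS. It was 5.28 in S1-02, 1.79 in S1-11, -3.58 in S1-12 and 4.57 in S2-06. PNST ran from 0.09 to 3.20 and PWT from -2.07 to 3.33. No difference between types passed, with mean differences of 0.88 for FS, 0.24 for PNST and -0.95 for PWT (two-sided exact permutation p = 0.514, 0.840 and 0.436, adjusted 0.617, 0.840 and 0.617). Without S1-12 the FS difference was 2.75 (exact permutation test, adjusted p = 0.0396), and without S1-02 it was -0.21 (adjusted p = 0.908).

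**Figure D4:**
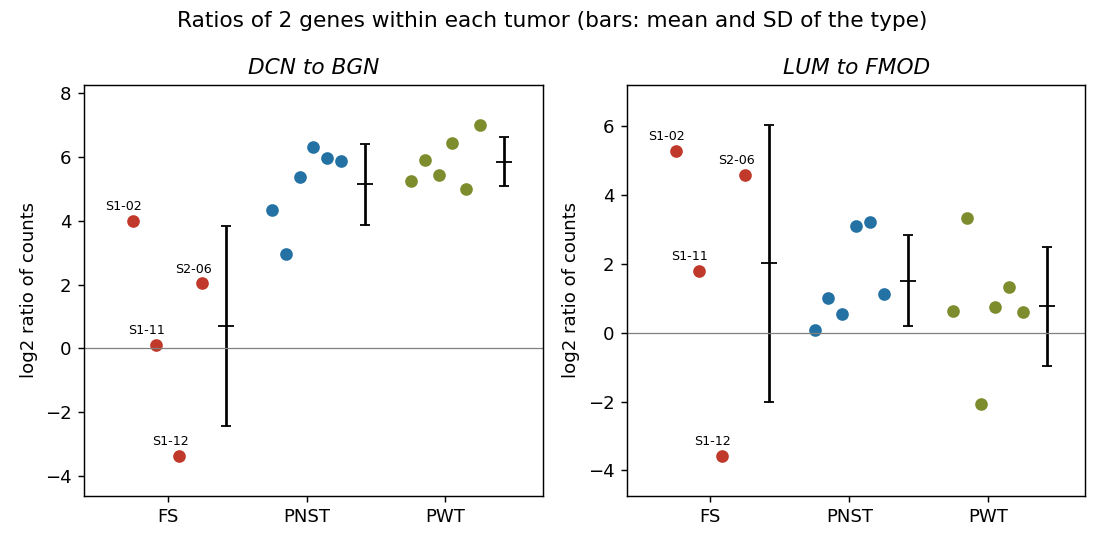
Log2 ratios of *DCN* to *BGN* and of *LUM* to *FMOD* counts, with 1 point for each tumor, the mean and SD of each type beside the points, and names for the 4 FS. The *DCN* to *BGN* ratio runs from -3.37 in S1-12 to 3.99 in S1-02 within FS and from 2.95 upward outside FS, and S1-12 holds the lowest value in both panels.

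Several members are neighbours in the genome. In the RefSeq annotation of the assembly UU_Cfam_GSD_1.0, used here for gene order only, *ECM2*, *ASPN*, *OMD* and *OGN* follow each other, all inside the span of *CENPP*. *LUM* lies between *KERA* and *DCN*, and *FMOD* lies beside *PRELP*. *PODN* overlaps the span of *SLC1A7*. Whether strand was used in counting is not stated in the methods, which leaves counts uncertain for genes inside the span of another gene. Levels of the members were correlated over the 16 tumors, 45 pairs in all, with Pearson's r and Spearman's rho of log2 CPM, 100000 permutations and Benjamini-Hochberg adjustment over the 45 pairs. With Spearman's rho 2 pairs passed, both of them neighbours. *FMOD* and *PRELP* had rho = 0.900 (permutation p = 3e-05, adjusted 0.00135) and r = 0.81 (permutation p = 0.00013, adjusted 0.00585). It held within S1 tumors (r = 0.97) and within S2 tumors (r = 0.79), without the 2 tumors farthest from the median of *FMOD* (r = 0.80), and after the mean of each type was taken out (r = 0.89). *OMD* and *OGN* had rho = 0.72 (permutation p = 0.00204, adjusted 0.0459) and r = 0.63 (permutation p = 0.00883, adjusted 0.0795), with r = 0.72 without the 2 farthest tumors. Within S1 and S2 tumors r was 0.40 and 0.56, and without the type means it was 0.37.

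The other 6 of 8 pairs inside a group of neighbours did not pass. *LUM* and *DCN* had rho = -0.26, and the other 5, among *ECM2*, *ASPN*, *OMD* and *OGN*, ran from 0.21 to 0.56. By Pearson's r, *BGN* and *FMOD*, which lie apart, also passed, with r = 0.80 (permutation p = 0.00034, adjusted 0.00765) and rho = 0.61 (permutation p = 0.0135, adjusted 0.203). Without S1-11 and S1-12 r was 0.54, within S1 tumors 0.89, within S2 tumors 0.16 and without the type means 0.87. *DCN* and *PODN* had r = 0.73 (permutation p = 0.00653, adjusted 0.0735), which was 0.22 without S1-12 and S2-06, 0.85 within S1 tumors, 0.91 within S2 tumors and 0.68 without the type means. *ECM2* and *BGN* had rho = -0.51 (permutation p = 0.0451, adjusted 0.261), which did not pass, and without the type means rho was 0.20.

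**Figure D5:**
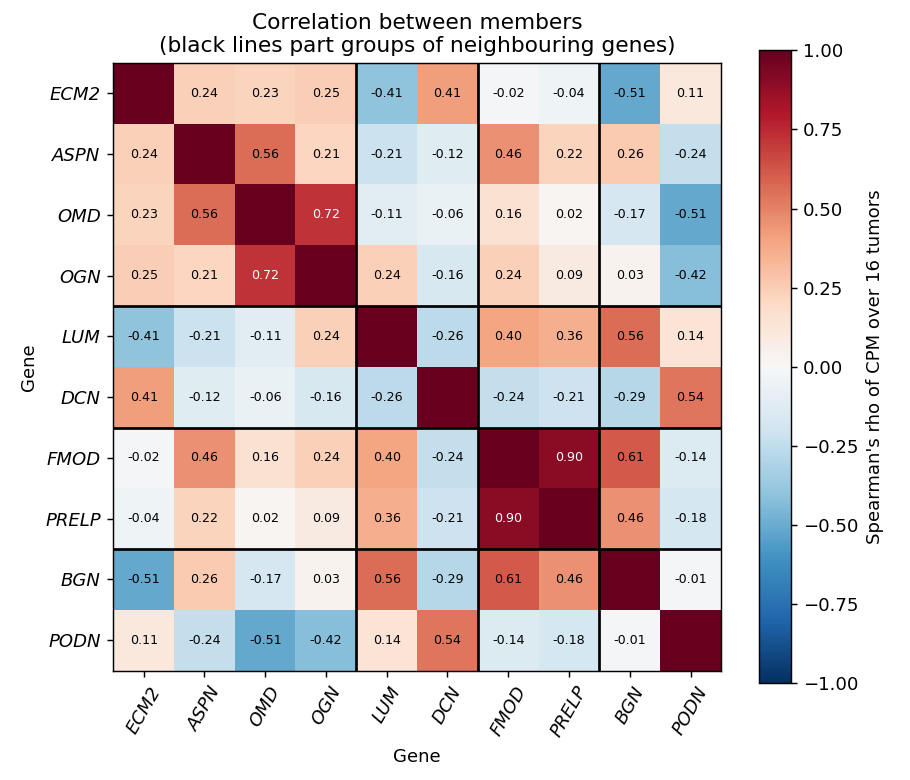
Spearman's rho of CPM over 16 tumors for each pair of the 10 genes, ordered so that neighbouring genes stand together between black lines. The darkest squares off the diagonal are *FMOD* with *PRELP* at 0.90 and *OMD* with *OGN* at 0.72.

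Among the 15407 other genes that passed the filter, those most like a member across tumors were looked up for *DCN*, *LUM*, *BGN* and *OGN*. This is a description over 16 tumors that differ in library depth and tumor type. The part of either in these values was not tested. The genes most like *DCN* were *BBS2* (rho = 0.91), *KIF13B* (0.88) and *LOC119868032* (0.87). For *LUM* they were *TGFBI* (0.94), which encodes a collagen-binding matrix protein induced by TGF-beta, *TIMP3* (0.87), an inhibitor of metalloproteinases held in the matrix, and *PHF10* (0.87). For *BGN* they were *KCTD15* (0.91), *CTIF* (0.90) and *PTGFRN* (0.90). For *OGN* they were *LOC111091330* (0.84), *LOC111096834* (0.83) and *PIAS2* (0.83). No other member was among these 12.

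Of 7 further genes of the family, 2 passed the filter. *TSKU* (tsukushi), a secreted member that binds BMPs, was higher in FS by a log2 fold change of 1.38 (SE 0.34, edgeR adjusted p = 0.0132), with 49.2 ± 27.6 CPM in FS (SD, n = 4), 19.8 ± 8.51 in PNST (SD, n = 6) and 17.1 ± 7.89 in PWT (SD, n = 6). *KERA* (keratocan), the neighbour of *LUM*, passed the filter and was not called, with its highest level, 26.4 CPM, in S1-11. *EPYC*, *OPTC*, *CHAD*, *NYX* and *PODNL1* were too low to test.

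Among the collagens that SLRPs bind, more were called higher than lower in FS. Of 12 tested, 6 were higher and 1 was lower in FS against both other types, where 9.46% of all genes were called (890 higher and 567 lower), and the median log2 fold change was 1.18, beside 0.0039 for all genes. The largest was *COL11A1*, which nucleates fibrils, at 5.63 (SE 0.97, edgeR adjusted p = 0.00139), with 229 CPM in S1-11 and 561 in S1-12, while S1-02 at 9.83 and S2-06 at 1.86 lay within the range of PNST (0 to 15.2 CPM). *COL14A1*, a collagen at the fibril surface, was at 2.52 (SE 0.50, adjusted p = 0.00374), *COL1A1*, a chain of type I collagen, at 1.81 (SE 0.51, adjusted p = 0.0282) and *COL5A1*, a chain of the type V collagen at the core of fibrils, at 1.43 (SE 0.40, adjusted p = 0.0263). *COL14A1* lay above the PNST range (79.9 to 254 CPM) in S1-02 and S1-11 only, and *COL5A1* (441 to 1208 CPM) in S1-11 and S1-12 only. *COL1A1* did so in S1-11 alone, at 40620 CPM against 3914 to 12720 in PNST. The collagen called lower was *COL5A3*, at -1.84 (SE 0.57, edgeR adjusted p = 0.0431). In PWT against both other types 2 of 12 were called, against 2.12% of all genes, both lower, *COL1A1* at -2.03 (SE 0.52, adjusted p = 0.0458) and *COL6A1* at -1.42 (SE 0.34, adjusted p = 0.0355), with a median of -1.26. Between FS and PWT 9 of 12 were higher in FS, against 11.2% of all genes called, and between FS and PNST 2 were higher and 1 was lower, against 7.13%.

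Of 20 genes tested whose products cut, hydroxylate, fold or crosslink collagen, 7 were called in FS, all higher (median 0.36), where 9.46% of all genes were called and 890 of those 1457 were higher. *ADAMTS3*, a procollagen N-proteinase, was at 3.72 (SE 0.62, edgeR adjusted p = 0.00117), *FKBP10*, a collagen chaperone, at 2.29 (SE 0.39, adjusted p = 0.00124), *LOXL1* at 2.09 (SE 0.43, adjusted p = 0.00474) and *LOXL2* at 1.59 (SE 0.36, adjusted p = 0.00857). The other 3 called were *LOX*, *ADAMTS14* and *SERPINH1*. *ADAMTS14* reached 10 counts in S1-02, S1-09, S1-11 and S2-06 only, and *ADAMTS3* outside FS in S1-03, S1-04 and S2-03 only. Without their FS levels neither would have passed the filter on low counts. *LOXL2* was at 243 CPM in S1-02 and 165 in S1-11, but within the PWT range (17.0 to 70.5 CPM) in S1-12 and S2-06. In PWT *PLOD2*, a lysyl hydroxylase of collagen telopeptides, was higher, at 1.25 (SE 0.31, adjusted p = 0.0399), and *FKBP10* was lower, at -2.20 (SE 0.51, adjusted p = 0.0323).

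Of 20 genes that build chondroitin and dermatan sulfate chains, 3 were called in FS, all higher (median 0.59), a share near the 9.46% of all genes. They were *CHSY3*, a chondroitin synthase, at 3.37 (SE 0.60, edgeR adjusted p = 0.00175), *CHST3*, a 6-O-sulfotransferase, at 1.76 (SE 0.40, adjusted p = 0.00871) and *XYLT1*, which adds the xylose that starts each chain, at 1.56 (SE 0.43, adjusted p = 0.0248). *CHSY3* reached 10 counts in S1-02, S1-04, S1-11 and S2-06 only, with 3 counts in S1-12. Without its FS levels it would not have passed the filter on low counts. In PWT *XYLT1* was lower, at -1.73 (SE 0.43, adjusted p = 0.0409), as was *CHPF2*, a polymerizing factor, at -1.11 (SE 0.17, adjusted p = 0.0120). Of 6 keratan sulfate genes tested, *B4GALT1*, a galactosyltransferase of many glycans, was the 1 called, at 1.61 in FS (SE 0.33, adjusted p = 0.00419). Its level was 162 ± 56.8 CPM in FS (SD, n = 4), 50.0 ± 21.9 in PNST (SD, n = 6) and 57.6 ± 26.8 in PWT (SD, n = 6).

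Growth factors and receptors known to bind SLRPs were called in both directions. Of 19 tested, 2 were higher and 1 lower in FS, with a median log2 fold change of 0.21, a share called near the 9.46% of all genes. *CCN4*, a secreted WNT target that binds decorin and biglycan, was at 3.90 (SE 0.56, edgeR adjusted p = 0.000373), *MET*, a receptor that decorin binds, at 2.04 (SE 0.57, adjusted p = 0.0273) and *TGFBR3*, a TGF-beta co-receptor, at -1.13 (SE 0.29, adjusted p = 0.0187). *MET* was at 135 CPM in S1-02 and 54.8 in S2-06. In S1-11, at 24.3, and S1-12, at 7.22, it lay within the range of PWT (1.48 to 35.2 CPM). *TGFB1* was lower in FS than in PNST, at -1.18 (SE 0.29, adjusted p = 0.0180).

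Markers of other cells in the sections were followed beside the members. S1-11, high in *BGN*, *FMOD*, *LUM* and *PRELP*, also had the highest sums of 5 tendon and cartilage markers (506 CPM, against 8.70 to 44.5 in the other tumors), of 6 skeletal muscle markers (857 CPM, against 2.22 to 403) and of 8 pericyte and smooth muscle markers (1792 CPM, against 381 to 1188). In S1-12, which shared the high *BGN*, *FMOD* and *PRELP*, these sums were 21.7, 5.42 and 827 CPM. In S1-02, which shared the high *LUM*, they were 11.9, 4.57 and 1188 CPM. *ACAN* alone made up 411 of the 506 CPM of tendon and cartilage markers in S1-11. *SCX*, *COMP* and *SOX9* were also highest in S1-11, whereas *TNMD* was at 1.62 CPM there and highest in S1-03, at 27.6. Keratinocyte markers were at 1355 CPM in S1-02, 792 in S1-12, 891 in S1-04, 1239 in S1-05 and 941 in S2-03, and at 111 or less in the other 11 tumors. Their part in the levels of the members was not tested.

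Of the marker genes tested, *MYH7* (2.98, SE 0.77, adjusted p = 0.0193), *SCX* (1.72, SE 0.49, adjusted p = 0.0306), *ACTA2* (2.40, SE 0.63, adjusted p = 0.0198) and *MCAM* (1.35, SE 0.41, adjusted p = 0.0403) were higher in FS by edgeR, and *CLEC3B*, a fibroblast marker that encodes tetranectin, was lower at -4.01 (SE 0.48, adjusted p = 0.000125). *MYH7* was at 125 CPM in S1-11 and at 2.32 to 3.61 in the other 3 FS, inside the range of the other types. *MYH7* reached 10 counts in S1-03, S1-07, S1-11 and S2-09 only, so without S1-11 it would not have passed the filter. *SCX* was at 30.2 CPM in S1-11 and 14.4 in S1-12, with 3.51 in S1-02 and 2.79 in S2-06, inside the range of the other types. *ACTA2* was likewise highest in S1-11 (210 CPM) and S1-12 (79.4), with 9.13 in S1-02. Fibroblast markers summed to 895 to 2595 CPM in FS, 1845 to 2978 in PNST and 1367 to 2141 in PWT. S2-06, low in *DCN* and *PODN*, had the lowest of these sums. S1-12, also low in both, was at 1390, above S1-02 at 1319 and S2-11 at 1367, in which *DCN* was at 2633 and 2624 CPM. *THY1* alone made up 1146 of the 1390 CPM in S1-12. *PDGFRA*, *DPT*, *PI16*, *MFAP5* and *CLEC3B* were each lower in S1-12 than in S1-02 and S2-11. *PDGFRA* was at 177 CPM in S1-12, 329 in S1-02 and 330 in S2-11. The 6 adipocyte markers summed to 471 CPM in S2-09, the tumor with the most *OGN*, but *LPL* alone made up 405 of these, and *ADIPOQ* and *PLIN1* were highest in S1-04, at 53.3 and 22.6 CPM. *LPL* was lower in FS than in PWT at -2.75 (SE 0.79, edgeR adjusted p = 0.0302), while the other 4 adipocyte markers tested were not called and the median of the 5 was 0.85. *PDGFRA*, a fibroblast marker, was lower in FS than in PNST at -1.18 (SE 0.36, adjusted p = 0.0498). Endothelial, macrophage, lymphocyte, keratinocyte and Schwann cell markers were called in none of the 6 comparisons with edgeR, and an unadjusted p under 0.05 was found for 3 endothelial, 2 macrophage, 3 Schwann cell, 0 lymphocyte and 0 keratinocyte pairs of gene and comparison. They were not tested with DESeq2.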

How the data were processed

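Per the labels and the methods, total RNA was extracted from formalin-fixed, paraffin-embedded sections, depleted of ribosomal RNA and sequenced on an Ion Proton, and reads were aligned to the canine genome ROS-canfam-01 with STAR and counted per gene with htseq-count. The deposited values are raw counts, in 34 columns of 41818 genes, without normalization. Versions and the strand setting are not given in the sources used here. The 5 summary rows that name no gene were left out. They held most reads, since 22.9% to 30.6% of the reads listed per tumor were on genes.

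Runs of the same tumor were summed, giving 16 samples. The filter on low counts asked for 10 counts or more in 4 tumors or more. Genes kept were tested with edgeR 4.0.16 (R 4.3.3), with TMM factors and the quasi-likelihood test, each type against both others in a fit of 2 groups and pairs of types in 1 fit of 3 groups. The same test was also run on simulated data, in which each changed gene moved alike in all tumors of a type. That setting does not cover calls carried by only some tumors of a type. Each tumor is 1 sample and technical spread is not separated from spread between dogs, so p-values measure the spread between these samples. The members, the other gene lists and the ratios were chosen with earlier results of these data known. All 10 members are named. Of each other list, up to 4 genes called in a comparison are named, smallest adjusted p first, and the remaining names were added after their values were seen. Ratios, correlations and their permutation tests were computed with numpy 2.4.6, with ranks from scipy 1.17.1. Alternatives were DESeq2 1.42.0, RLE and upper quartile factors, no filter, the name prefix as a term, histological groups, tumors left out, and depth made equal by sampling. The last, and leaving out S1-11 with S1-12, were added after seeing the data. Exact Poisson intervals at the 95% level cover counting error only.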

Additional observations from a re-analysis of the deposited data

Results flagged for a closer look

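In each type, the highest and lowest tumor of every member and of both ratios was compared with the nearest other tumor by Dixon's test at the 95% level, over 36 groups of 4 or 6 tumors. Chance flags about 1 in 20 groups where values are normal and groups independent. The members were tested as CPM without logs, and the groups share tumors, so that rate cannot be set against the count here. Of 36 groups 5 were flagged, each by a single high tumor. S2-07 held 332.7 CPM of *ECM2*, with the other 5 PNST at 139 to 174. S1-04 held 36.57 CPM of *OGN*, with the other PNST at 12.1 or less. Among PWT, S2-09 held 47.62 CPM of *FMOD*, with the others at 15.4 or less, and 269.6 CPM of *PODN*, with the others at 127 or less. S2-11 held 164.0 CPM of *OMD*, with the next PWT at 71.0. S2-11 bears on a called result, since *OMD* was not called in PWT without it. None of the 4 FS was flagged. Yet the ratio of highest to lowest level was largest in FS for *DCN*, *BGN*, *ASPN*, *ECM2*, *FMOD*, *PRELP* and *PODN*. In a group of 4 the test asks for a gap above 0.829 of the range.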

How the results depend on the processing

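No paired analysis was possible because each tumor is its own sample and the replicate numbers only follow the order of the labels. In FS against both other types, where 4 members were called, 2 were called with the prefix as a term (*BGN* and *ECM2*), without S1-10 and S2-08, or in S1 tumors alone, and 1 with histological groups (*BGN*) or without S1-11 and S1-12 (*ECM2*). Leaving out each tumor gave 2 to 4, with 2 without S1-11. In PWT, where 1 was called, DESeq2 called 2 (*OMD*, and *BGN* lower), and 0 were called with the prefix as a term, histological groups, without S1-10 and S2-08, or in S2 tumors alone. Leaving out each tumor gave 0 to 1. Between FS and PNST, with 2 called, 0 were called with histological groups or in S1 tumors, 1 without S1-10 and S2-08 or without S1-11 and S1-12, and 1 to 2 with each tumor left out. Between FS and PWT, with 3 called, 1 was called with the prefix as a term or without S1-11 and S1-12, 0 with histological groups, and 2 to 4 with each tumor left out. Between PNST and PWT, with 0 called, 1 was called with DESeq2 or without S1-11 and S1-12, and 0 to 1 with each tumor left out. *FMOD* changed sign without S1-11 and S1-12, at -1.86 in FS against both and -1.50 against PWT. The cause of these changes was not tested.

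The *DCN* to *BGN* difference of FS was -3.57 with histological groups (exact permutation test, adjusted p = 0.0508) and -2.48 without S1-11 and S1-12 (adjusted p = 0.0659), and -5.90 to -3.45 with each tumor left out. That of *LUM* to *FMOD* ran from -0.21 to 2.75. The 2 pairs of correlated members became 0 within S2 tumors, which number 7, and 5 after the type means were taken out. The 5 highest rho were then *FMOD* with *PRELP* (0.89), *BGN* with *FMOD* (0.81), *ASPN* with *OMD* (0.77), *DCN* with *PODN* (0.72) and *BGN* with *PRELP* (0.71). Of these, *BGN* with *FMOD*, *DCN* with *PODN* and *BGN* with *PRELP* are not neighbours. *OMD* with *OGN* was at 0.54, below these 5. Depth limits *FMOD*, *PRELP*, *LUM* and *OGN* in the tumors with 2 to 7 counts. Of the values that answer a comparison, 262 under other settings kept their side of the threshold or, for counts, stayed within 1.5 times. Of the rest, 31 counts moved further, 2 ratio tests lost their pass and 1 gained it. The 262 include comparisons with no member called and ratios that did not pass. For single genes, 353 values kept their side, 58 lost a call, 12 gained a call and 2 changed sign.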
